A study of Homo sapiens with 10 samples.

Results

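ANO1 encodes a chloride channel and lies on the long arm of chromosome 11 with a row of genes on its telomeric side. ANO1, FADD, PPFIA1, CTTN, SHANK2 and the long non-coding RNA RP11-626H12.1 were taken by symbol, which gave 6 of the 58381 gene rows present in each of the 10 deposited tables. They were selected on their levels in these lines and in control, values already known, so those levels are described here and not tested. The cells were GIST-T1, an established human line from a metastatic gastrointestinal stromal tumour (GIST). InsE, InsF, InsG and InsH are GIST-T1 derivatives in which a CTCF insulator was disrupted, and the labels give each of those names as the genotype. The control was GIST-T1 with the genotype WT. Each of the 5 groups had 2 libraries, succinate dehydrogenase was intact in the parent line, and no treatment is recorded. The labels do not state what was edited in each derivative, whether it was 1 clone, or whether both libraries of each group were grown as separate cultures. Errors and p-values therefore measure the spread between libraries, which may be technical. The comparison sets the disrupted derivatives against control, and a single control line stands behind every difference from control. An effect of the disruption therefore cannot be told apart from other differences between the derivatives and that line.

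CTCF binds DNA at many boundaries between chromosome loops, and an insulator is such a boundary placed between an enhancer and a gene. ANO1 (anoctamin 1, also DOG1) opens when cytosolic calcium rises and lets chloride pass. It paces the interstitial cells of Cajal in the gut wall, the cells GIST resembles, and its protein is a diagnostic marker of GIST. FADD is the adaptor that joins death receptors to caspase 8. PPFIA1 is liprin alpha 1, a scaffold that binds receptor phosphatases of the LAR family and works at the cell edge. CTTN is cortactin, which binds branched actin and the Arp2/3 complex that makes it. SHANK2 is a scaffold of synapses and of epithelial surfaces that binds cortactin. These genes are neighbours and are often amplified together in squamous carcinomas.

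In hg38 coordinates from the GENCODE release 29 annotation, RP11-626H12.1 (AP003555.3 there, a lincRNA) spans chr11:69985876-70015815 on the plus strand. ANO1 spans chr11:70078302-70189528 and FADD chr11:70203163-70207390, both on the plus strand. PPFIA1 spans chr11:70270700-70385312 and CTTN chr11:70398404-70436584, again on the plus strand. SHANK2 spans chr11:70467856-71252577 on the minus strand. The non-coding gene is therefore the only one of the 6 on the centromeric side of ANO1. It has exons at chr11:69985876-69986166 (291 bases) and chr11:70015675-70015815 (141 bases).

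RefSeq (GRCh38.p14) places the start of ANO1 elsewhere, at position 69985907, which is 92.4 kb centromeric of the GENCODE start. RP11-626H12.1 begins 31 bases before that RefSeq start. The RefSeq windows from 250 bases before to 50 after a gene's start were found for 3 of the 6 genes, ANO1, FADD and PPFIA1. They are shown because the ANO1 window and the first exon of RP11-626H12.1 overlap, and because the windows of its neighbours carry motifs for comparison. Capitals in the ANO1 window mark the 81 bases that are also the first 81 bases of RP11-626H12.1, which were identical at all 81. Capitals in the other windows mark GGGCGG on either strand, the core of the box bound by Sp factors.
ANO1 window, chr11:69985657-69985956, plus strand: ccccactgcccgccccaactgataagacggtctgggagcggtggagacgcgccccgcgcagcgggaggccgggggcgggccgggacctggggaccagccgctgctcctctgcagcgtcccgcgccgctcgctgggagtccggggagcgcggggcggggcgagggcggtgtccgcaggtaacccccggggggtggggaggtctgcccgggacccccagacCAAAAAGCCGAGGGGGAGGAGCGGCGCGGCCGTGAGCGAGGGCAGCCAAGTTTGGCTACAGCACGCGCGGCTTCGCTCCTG
FADD window, chr11:70203046-70203345, plus strand: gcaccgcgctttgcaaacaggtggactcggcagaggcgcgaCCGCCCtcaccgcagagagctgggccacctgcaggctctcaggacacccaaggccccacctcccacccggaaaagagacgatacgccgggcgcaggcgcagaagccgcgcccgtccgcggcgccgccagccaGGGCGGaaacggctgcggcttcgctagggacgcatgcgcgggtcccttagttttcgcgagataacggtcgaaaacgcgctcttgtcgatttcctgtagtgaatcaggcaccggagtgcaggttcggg
PPFIA1 window, chr11:70270440-70270739, plus strand: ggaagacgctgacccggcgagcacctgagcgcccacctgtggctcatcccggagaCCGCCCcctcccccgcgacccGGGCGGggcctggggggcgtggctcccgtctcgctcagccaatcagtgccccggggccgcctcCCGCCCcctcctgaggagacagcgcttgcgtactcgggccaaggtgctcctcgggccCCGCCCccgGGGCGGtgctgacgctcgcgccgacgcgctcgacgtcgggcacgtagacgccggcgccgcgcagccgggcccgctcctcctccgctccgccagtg
Searched on both strands, GGGCGG occurred 4 times in the ANO1 window, 2 times in that of FADD and 5 times in that of PPFIA1. At least 1 match is held by 45% of the 35116 RefSeq windows, a share that does not show how usual these counts are. TATAAA was in none of the 3 windows and is in 11.5% of all windows. CCCTC, a short run found within the CTCF motif, occurred 3, 1 and 2 times in the ANO1, FADD and PPFIA1 windows, and 71.2% of all windows hold at least 1 match. The dinucleotide CG occurred 36 times in the ANO1 window, a number that 12.7% of all windows reach. FADD also had 36 and PPFIA1 had 42, a number that 5.85% of windows reach. A match is a run of letters and not a measured site.

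Libraries held 9.4 to 42.5 M (mega) estimated counts in the 4 lines, against 30.8 and 20.1 M in control. Levels are given as CPM (counts scaled by library size and TMM factors), which compare 1 gene between libraries, and as TPM (transcript shares on a fixed total), which also allow for length. Markers of GIST and interstitial cells of Cajal (KIT, ETV1, PRKCQ, CD34, PDGFRA) reached 1 TPM in 5 of 5 cases and summed to 2030 to 2170 TPM in line libraries, against 2621 and 2627 TPM in control. KIT, the receptor that drives most GIST, read 344 to 507 TPM in line libraries, against 716 and 724 TPM in control. CD34, the largest part of the sum, read 1447 to 1550 TPM, against 1706 and 1710 TPM, and PRKCQ was also lower. ETV1 overlapped control, at 103 to 164 TPM, against 151 and 154 TPM. PDGFRA did too, at 23.5 to 38.9 TPM, against 29.06 and 29.08 TPM. Smooth muscle markers reached 1 TPM for 1 of 4 (ACTG2) and summed to 4.78 to 25.6 TPM in lines, against 5.49 and 5.64 TPM in control, with DES at 0 in all 10 libraries. None of 3 Schwann cell and none of 3 endothelial markers reached 1 TPM. Of 4 epithelial markers only KRT8 did (KRT19 at 0 throughout), and of 3 leukocyte markers only CD68. The epithelial sum was 15.8 to 20.3 TPM in lines, against 24.5 and 25.7 TPM in control, and the leukocyte sum stayed at or below 1.78 TPM in lines, against 0.55 and 0.68 TPM in control. All 3 fibroblast markers reached 1 TPM and summed to 1300 to 1581 TPM in lines, against 1237 and 1250 TPM in control. Within that sum the markers went different ways. THY1 was lower in lines, at 535 to 759 TPM, against 805 and 819 TPM in control. LUM was higher, at 660 to 919 TPM, against 420 and 423 TPM, and PDGFRB overlapped, at 10.46 to 18.31 TPM, against 9.04 and 10.47 TPM. The part of these marker levels in the results that follow was not tested.

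ANO1 was by far the most abundant of the genes and was lower in each line than in control. It read 683 and 738 CPM in the InsE pair of libraries, 697 and 761 CPM in the InsF pair, 746 and 804 CPM in the InsG pair, and 760 and 811 CPM in the InsH pair, against 1274 and 1274 CPM in control. The highest line library stayed well below both control libraries, which were almost equal. Group means were 711 ± 39 CPM in InsE cells, 729 ± 45 in InsF cells, 775 ± 41 in InsG cells and 786 ± 37 in InsH cells, against 1274 ± 0.64 CPM in control (SD, n = 2 each). On the log2 scale the difference from control was -0.84 ± 0.06 in InsE cells, -0.81 ± 0.06 in InsF cells, -0.72 ± 0.06 in InsG cells and -0.70 ± 0.06 in InsH cells (SE). In TPM the gene read 289 to 358 in the 8 line libraries, against 508 and 520 in control, so the gap held when length was allowed for. In RNA from bulk cultures, fewer cells with ANO1 RNA and less ANO1 RNA per cell cannot be told apart.

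**Figure D1:**
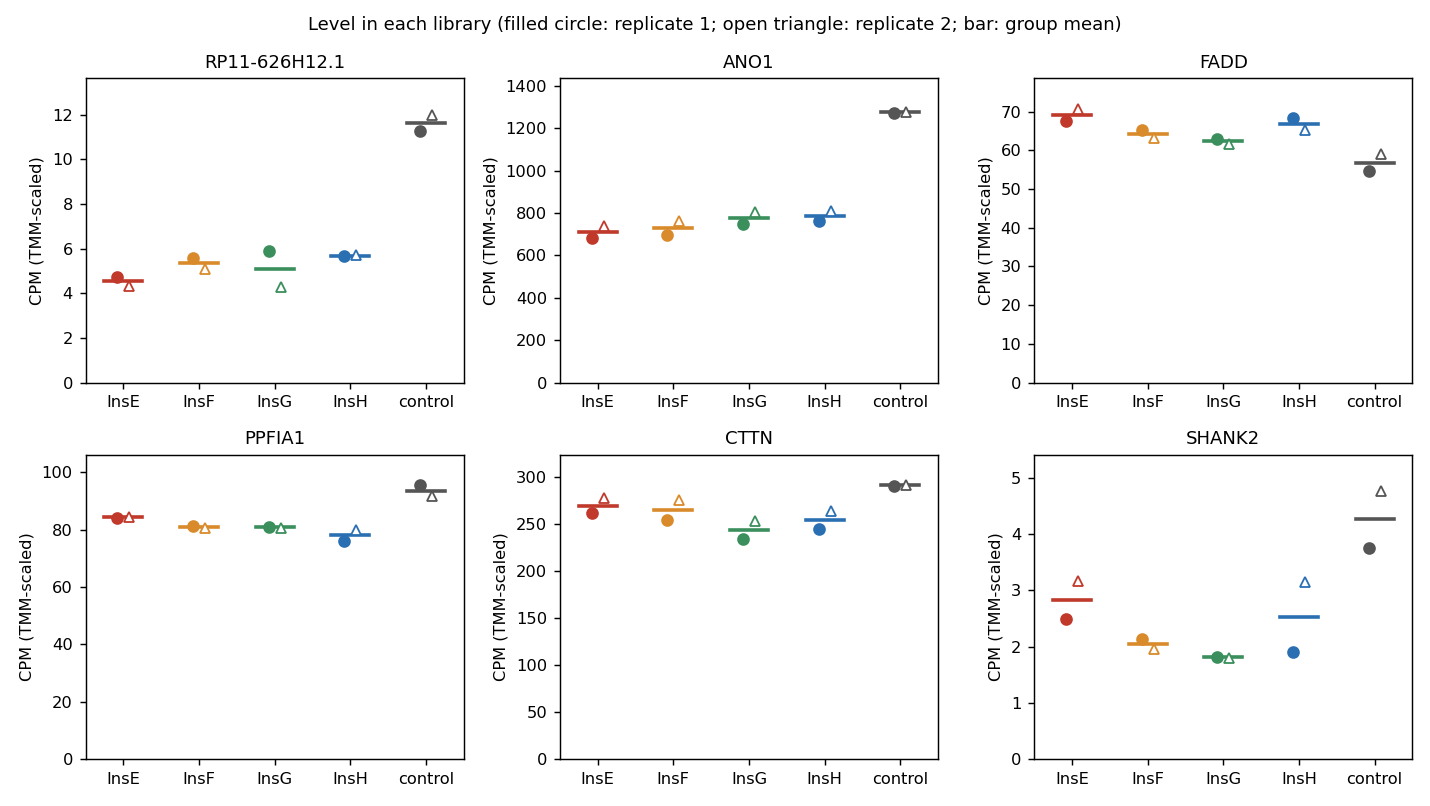
Level of each of the 6 genes in each library, in CPM on axes that start at 0, with 1 panel per gene, filled circles for replicate 1, open triangles for replicate 2 and a bar at the group mean. ANO1 sits between 683 and 811 CPM in the 4 lines and at 1274 CPM in control, and FADD is the one panel in which the lines lie above control.

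RP11-626H12.1, whose function is not described here, differed from control by more than ANO1 did on the log2 scale. It had 148 and 41 counts in the InsE pair, 162 and 76 in the InsF pair, 252 and 48 in the InsG pair, and 131 and 69 in the InsH pair, against 336 and 234 counts in control. Scaled for depth this was 4.74 and 4.34 CPM in the InsE pair, 5.59 and 5.11 in the InsF pair, 5.89 and 4.30 in the InsG pair, and 5.65 and 5.72 in the InsH pair, against 11.3 and 12.0 CPM in control. Every line library was below both control libraries. The log2 difference from control was -1.34 ± 0.15 in InsE cells, -1.11 ± 0.14 in InsF cells, -1.14 ± 0.14 in InsG cells and -1.03 ± 0.15 in InsH cells (SE). The counts of the row were 0.694 and 0.587% of those of ANO1 in the InsE pair, 0.802 and 0.671% in the InsF pair, 0.79 and 0.534% in the InsG pair, and 0.744 and 0.705% in the InsH pair, against 0.885 and 0.942% in control. That ratio was also lower in every line library than in either control library. The row shares the bases shown above with the RefSeq start of ANO1, and whether its fragments came from ANO1 transcripts was not tested.

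FADD was the only one of the 6 genes with a higher level in the lines. It read 67.5 and 70.7 CPM in the InsE pair, 65.3 and 63.3 CPM in the InsF pair, 63.0 and 61.7 CPM in the InsG pair, and 68.3 and 65.3 CPM in the InsH pair, against 54.7 and 59.0 CPM in control. No line library reached down to a control library, although the nearest pair was 61.7 CPM in InsG and 59.0 CPM in control. The log2 difference from control was 0.28 ± 0.06 in InsE cells, 0.18 ± 0.06 in InsF cells, 0.14 ± 0.06 in InsG cells and 0.24 ± 0.06 in InsH cells (SE). The InsG value was 0.08 without control replicate 1.

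The size of the FADD difference depended on how fragments were divided with RP11-805J14.5, an antisense RNA whose 1011 exon bases all lie within the FADD exon. Summed with FADD, the estimated counts were whole numbers in 10 of 10 libraries (tolerance 0.02), while the FADD row alone was whole in 3 of 10. Fragments were thus divided between rows on opposite strands, and their strand cannot be read from these counts. The antisense row took 0.76 and 0% of the sum in the InsE pair, 4.32 and 5.73% in the InsF pair, 2.09 and 0% in the InsG pair, and 0.47 and 0% in the InsH pair, against 9.08 and 6.27% in control. With both rows added, the level was 68.0 and 70.7 CPM in the InsE pair, 68.3 and 67.1 CPM in the InsF pair, 64.3 and 61.7 CPM in the InsG pair, and 68.6 and 65.3 CPM in the InsH pair, against 60.2 and 63.0 CPM in control. InsG then overlapped control, and the mean log2 difference of the 4 lines fell to 0.12 with the rows summed, against 0.21 for the FADD row alone. This sum was an alternative chosen after seeing the data.

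**Figure D2:**
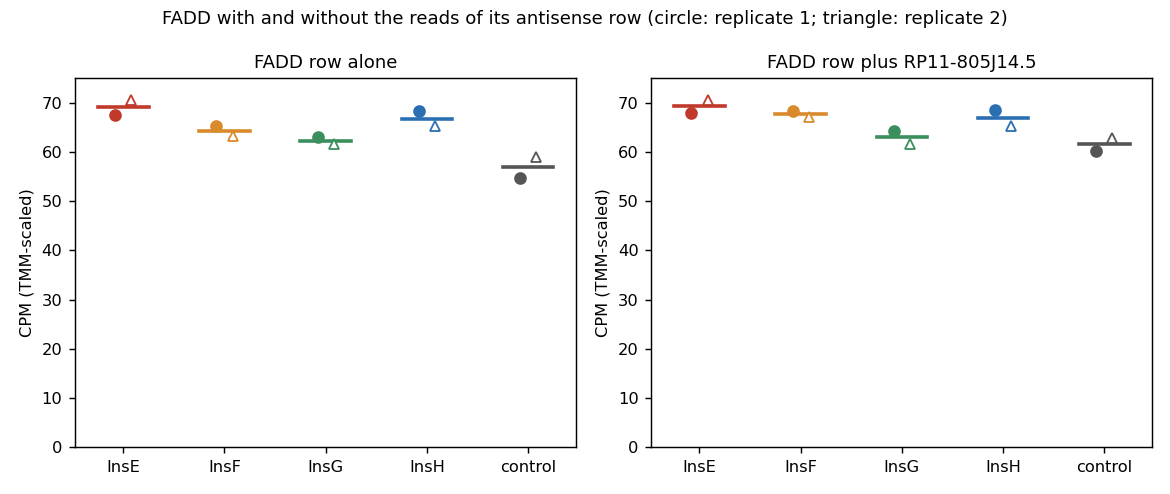
FADD in each library in CPM, from its own row (left) and with the row of the antisense RNA RP11-805J14.5 added (right), with axes from 0, circles for replicate 1, triangles for replicate 2 and bars for group means. The control mean is 56.9 CPM on the left and 61.6 CPM on the right, where the InsG libraries at 64.3 and 61.7 CPM overlap control.

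Fragments of ANO1 and PPFIA1 were divided with antisense rows in the same way, and there the choice made no difference. The sums were whole in 10 of 10 libraries for both genes, and neither gene's own row was whole in any library. RP11-805J14.2 (ANO1-AS1 in GENCODE) took 0.22 to 1.09% of the sum with ANO1 in line libraries, against 0.62 and 0.63% in control. AP000487.5 took 0.34 to 1.03% of the sum with PPFIA1 in line libraries, against 0.67 and 0.34% in control. With the rows summed the mean log2 difference stayed at -0.77 for ANO1 and -0.21 for PPFIA1.

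PPFIA1 was lower in each line, by less than ANO1. It read 84.1 and 84.5 CPM in the InsE pair, 81.3 and 80.6 CPM in the InsF pair, 81.0 and 80.7 CPM in the InsG pair, and 76.2 and 79.8 CPM in the InsH pair, against 95.5 and 91.7 CPM in control. All line libraries were below both control libraries in CPM. The log2 difference from control was -0.15 ± 0.05 in InsE cells, -0.21 ± 0.05 in InsF cells, -0.21 ± 0.05 in InsG cells and -0.27 ± 0.05 in InsH cells (SE). In TPM the groups overlapped, at 30.4 to 32.7 in line libraries, against 34.5 and 30.7 in control. The estimated transcript length, by which TPM divides, was 4273 and 4612 bases in control, and the mean log2 difference on the TPM scale was -0.03.

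CTTN was also slightly lower. It read 261 and 277 CPM in the InsE pair, 254 and 275 CPM in the InsF pair, 234 and 253 CPM in the InsG pair, and 245 and 264 CPM in the InsH pair, against 291 and 291 CPM in control. The gap between the highest line library and the lower control library was small, and the groups did not overlap. The log2 difference from control was -0.11 ± 0.06 in InsE cells, -0.14 ± 0.06 in InsF cells, -0.26 ± 0.06 in InsG cells and -0.20 ± 0.06 in InsH cells (SE). Without replicate 1 of the line itself it was -0.07 in InsE and -0.08 in InsF. In TPM the line libraries held 143 to 167, just below 168.3 and 167.7 in control.

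SHANK2, the gene farthest toward the telomere, was the least abundant. It had 78 and 30 counts in the InsE pair, 62 and 29 in the InsF pair, 78 and 20 in the InsG pair, and 44 and 38 in the InsH pair, against 112 and 93 counts in control. These are 2.497 and 3.17 CPM in the InsE pair, 2.14 and 1.95 in the InsF pair, 1.82 and 1.79 in the InsG pair, and 1.90 and 3.15 in the InsH pair, against 3.76 and 4.77 CPM in control. The line libraries were all lower in CPM, with wide scatter within InsE, InsH and control. The log2 difference from control was -0.62 ± 0.25 in InsE cells, -1.04 ± 0.25 in InsF cells, -1.23 ± 0.26 in InsG cells and -0.79 ± 0.26 in InsH cells (SE). The InsH value was -0.44 without InsH replicate 1 and -1.16 without InsH replicate 2. In TPM the groups overlapped, at 0.56 to 1.51 in line libraries, against 0.92 and 2.68 in control, whose estimated transcript lengths were 6221 and 2832 bases. With so few counts per library and 22 annotated transcripts, neither the length nor the TPM of SHANK2 was precise.

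**Figure D3:**
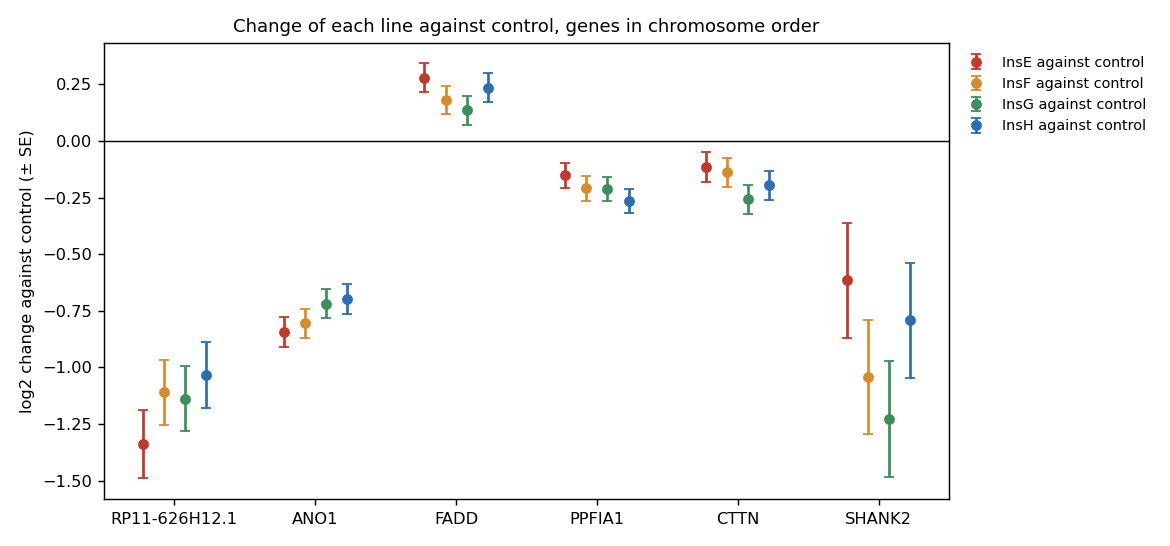
log2 difference of each line from control for the 6 genes in chromosome order, with bars of 1 SE. RP11-626H12.1 and ANO1 lie between -1.34 and -0.70, FADD lies between 0.14 and 0.28, and the long bars of SHANK2 go with its 20 to 112 counts per library.

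Set side by side, the mean log2 difference of the 4 lines from control was -1.16 ± 0.11 for RP11-626H12.1, -0.77 ± 0.05 for ANO1, 0.21 ± 0.05 for FADD, -0.21 ± 0.04 for PPFIA1, -0.18 ± 0.05 for CTTN and -0.92 ± 0.19 for SHANK2 (SE). The differences did not fall off in order with distance from ANO1. On the telomeric side FADD, PPFIA1 and CTTN were alike in size, and the break in order of size rests on SHANK2. That gene had 20 to 112 counts per library, and its mean difference was -0.48 with limma on log2(TPM + 1). The FADD value was 0.12 with the antisense row summed. The part of distance was not tested. FADD starts 124.9 kb from the GENCODE start of ANO1 and had the opposite sign, and PPFIA1 starts 192.4 kb away. SHANK2 spans 389.6 to 1174.3 kb from that point, with a value near that of ANO1. It lies on the minus strand, so its own start is the far end. All 6 genes passed the expression filter. With edgeR's quasi-likelihood test, 5 were called lower and 1 higher in the mean of the lines, against a background of 14.5% of 15554 genes called lower and 13.1% called higher. In CPM, 5 had all 8 line libraries below both control libraries and 1 had all 8 above, against 14.7% and 13.3% of all genes. Since these contrasts were known when the genes were picked, nothing is read from those counts. The calls of ANO1 and RP11-626H12.1 held in every alternative run, and the other 4 did not. FADD lost its call with the antisense row summed (edgeR adjusted p = 0.0996) and without control replicate 1 or 2 (0.229 and 0.0534). PPFIA1 lost it with limma on both TPM scales (0.79 and 0.791) and without control replicate 1 (edgeR, 0.112). CTTN lost it with library sizes only (edgeR, 0.0969), with limma (0.257 and 0.256) and without control replicate 1 or 2 (edgeR, 0.183 and 0.171). SHANK2 lost it with limma (0.241 and 0.277) and without control replicate 2 (edgeR, 0.108).

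**Figure D4:**
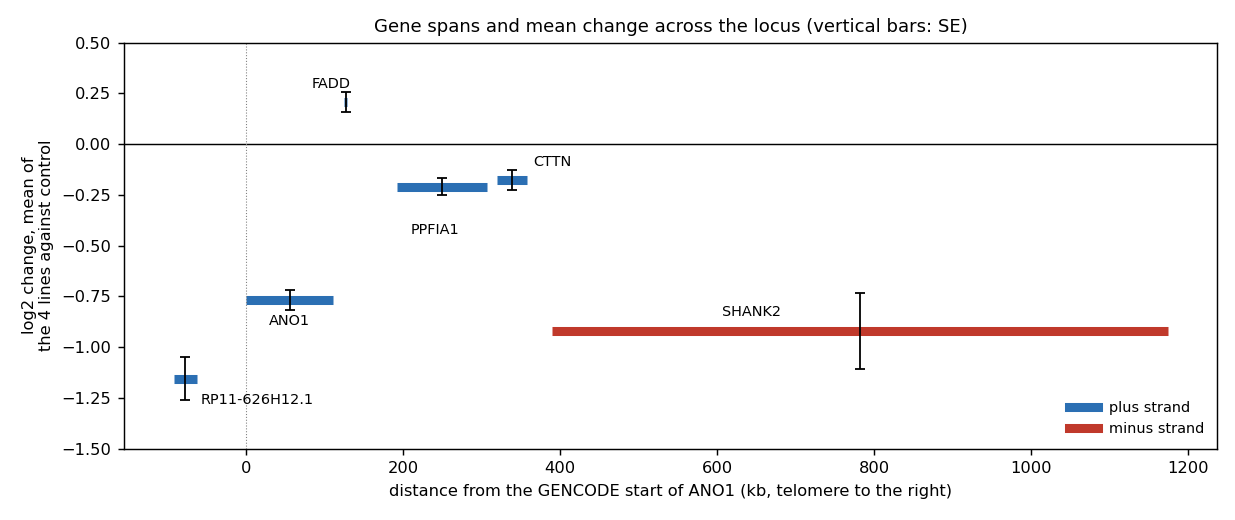
Mean log2 difference of the 4 lines from control for each gene, drawn as a bar over the gene's span in kb from the GENCODE start of ANO1, with blue for the plus strand, red for the minus strand and vertical bars of 1 SE. FADD at 0.21 lies between ANO1 at -0.77 and PPFIA1 at -0.21, and SHANK2 at -0.92 reaches 1174.3 kb.

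The order of levels per length also differed between lines and control. In the lines ANO1 (289 to 358 TPM) and CTTN (143 to 167) led, followed by FADD (58.2 to 66.6). RP11-626H12.1 (29.1 to 41.6 TPM) and PPFIA1 (30.4 to 32.7 TPM) overlapped there, and SHANK2 was last (0.56 to 1.51 TPM). In control the order was ANO1 (508 and 520 TPM), CTTN (167.7 and 168.3), RP11-626H12.1 (75.3 and 80.0), FADD (49.3 and 53.3), PPFIA1 (30.7 and 34.5) and SHANK2 (0.92 and 2.68), with no overlap between neighbours. FADD and RP11-626H12.1 thus stood in opposite order in lines and control, although the effective length of the non-coding RNA, 210 to 234 bases, makes its TPM sensitive to the fragment length of each library.

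The 4 lines were then compared with each other. The levels in each line were in view when the genes were selected, so these tests are not independent evidence. In the edgeR fit of all 10 libraries without a replicate term, none of the 6 genes passed the test for any difference among the lines, against a background of 13.2% of genes. Adjusted p was 0.326 for ANO1, 0.385 for FADD, 0.496 for PPFIA1, 0.395 for CTTN, 0.376 for SHANK2 and 0.523 for RP11-626H12.1 (edgeR). Each of the 6 pairs of lines was also tested for each gene. Over these 36 tests 0 passed edgeR's adjusted threshold and 3 had an unadjusted p under 0.05. These were ANO1 between InsE and InsH and, between InsE and InsG, FADD and SHANK2. The background of called genes was 18.6% for InsE against InsF, 17.3% for InsE against InsG and 14.5% for InsE against InsH. It was 0.174% for InsF against InsG, 0.0707% for InsF against InsH and 0.0% for InsG against InsH. InsE against the mean of the other 3 lines called 24.2% of all genes and none of the 6 in that fit. With limma on log2(TPM + 1) and log2(TPM + 0.1), where 17.4% of all genes were called, ANO1 did pass, at a difference of -0.20 on both scales (limma adjusted p = 0.029 and 0.0285).

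The intervals leave room for modest differences. For ANO1 the log2 difference of InsE from InsH was -0.15 (95% interval -0.29 to -0.001), and from the mean of the other 3 lines it was -0.10 (-0.22 to 0.02). That second value was -0.05 without InsE replicate 1 and -0.15 without InsE replicate 2. InsE differed from the mean of InsF, InsG and InsH by 0.10 for FADD (-0.02 to 0.21), 0.08 for PPFIA1 (-0.02 to 0.18) and 0.08 for CTTN (-0.04 to 0.20). For CTTN it was 0.13 without InsE replicate 1 and 0.05 without InsE replicate 2. The same difference was 0.40 for SHANK2 (-0.08 to 0.89) and -0.25 for RP11-626H12.1 (-0.54 to 0.05), whose low counts give wide intervals. For RP11-626H12.1 it was -0.14 without InsG replicate 1. A missed threshold does not show that the lines were alike.

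Replicate 2 read higher than replicate 1 in every line for ANO1 and CTTN, and a fit paired over all 10 libraries changed the call for these 2 genes. The log2 CPM of replicate 2 minus that of replicate 1 was 0.113, 0.127, 0.109 and 0.095 for ANO1 in InsE, InsF, InsG and InsH, and 0.001 in control. For CTTN it was 0.087, 0.118, 0.112 and 0.107 in the same lines, and 0.002 in control. The replicate numbers thus moved together in the lines and not in control. With the replicate number as a block in edgeR, the adjusted p for any difference among the lines was 0.00897 for ANO1 and 0.0301 for CTTN, against a background of 35.0% of genes called. The other 4 genes had adjusted p of 0.199 to 0.399 in that fit. The numbers paired the lines and not control, and a block fitted on the 8 line libraries alone, added after seeing the data, called ANO1 (edgeR adjusted p = 5.8e-17) and CTTN (2.46e-07) and also FADD (0.019) and PPFIA1 (0.0415). That fit called 56.8% of the 15173 genes it tested, and without the block the same libraries gave 0.449 for ANO1, 0.516 for CTTN, 0.452 for FADD and 0.609 for PPFIA1. The block was read from the same values, and the fit held only 8 libraries. How small its p-values are is therefore not read as strength of evidence.

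In the blocked fit ANO1 was lower in InsE than in InsG by a log2 difference of -0.125 ± 0.034 (SE, edgeR adjusted p = 0.011, 32.7% of all genes called) and lower than in InsH by -0.146 ± 0.034 (adjusted p = 0.00513, 27.8% called). InsE was below InsG and below InsH in both replicates. CTTN was higher in InsE than in InsG by 0.144 ± 0.038 (edgeR adjusted p = 0.0094), again in both replicates. In that fit the ANO1 and CTTN differences between InsE and InsG had opposite signs. Without the block the edgeR adjusted p of this pair was 0.217 for ANO1 and 0.167 for CTTN. The levels were in view when the genes were selected, so nothing further is read from the signs. Against the mean of the other 3 lines, InsE was lower for ANO1 (adjusted p = 0.00941, edgeR with the block) and higher for CTTN (adjusted p = 0.0448), in a contrast that called 38.2% of all genes. The block includes control, whose replicates did not move with those of the lines.

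Estimated transcript length is a further readout, on which TPM depends but which the choice of genes did not name. It is the mean length of a gene's transcripts, weighted by RSEM's estimate of each one's share, and 4 of the 6 genes have more than 1 annotated transcript. The permutation test treated all 10 libraries as separate, including the 2 of each group, and took no account of replicate number. Its p-values therefore do not measure the spread between lines. ANO1 averaged 3720 bases in lines and 3857 bases in control, a difference of -136.7 bases (exact two-sided permutation p = 0.3111, adjusted p = 0.6222 over 4 genes). In replicate 1 all 4 lines were shorter, at 3521 to 3622 bases, against 3805 bases in control. In replicate 2, 3 of 4 were shorter, at 3791 to 3919 bases in all 4 lines, against 3908 bases in control. The spread between replicate numbers was therefore as large as the difference from control, which was -85.5 bases without control replicate 2.

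PPFIA1 averaged 4108 bases in lines and 4443 bases in control, a difference of -335.0 bases (exact two-sided permutation p = 0.0444, adjusted p = 0.1778). The control libraries stood at 4273 and 4612 bases, and InsG replicate 1 at 4289 bases lay between them. The PPFIA1 difference was -165.3 bases without control replicate 2 and -504.8 bases without control replicate 1. CTTN differed by -28.5 bases (-43.7 without InsG replicate 1 and -7.1 without InsE replicate 2, adjusted exact permutation p = 0.7778 with all libraries) and SHANK2 by -317.4 bases (adjusted exact permutation p = 0.7778). Without control replicate 1 the SHANK2 difference became 1377.2 bases. Of the 45 ways to draw 2 of 10 libraries, the smallest attainable p is 0.0222, and for 1 gene alone the adjusted p cannot go below 0.0889, so a single gene could not pass.

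**Figure D5:**
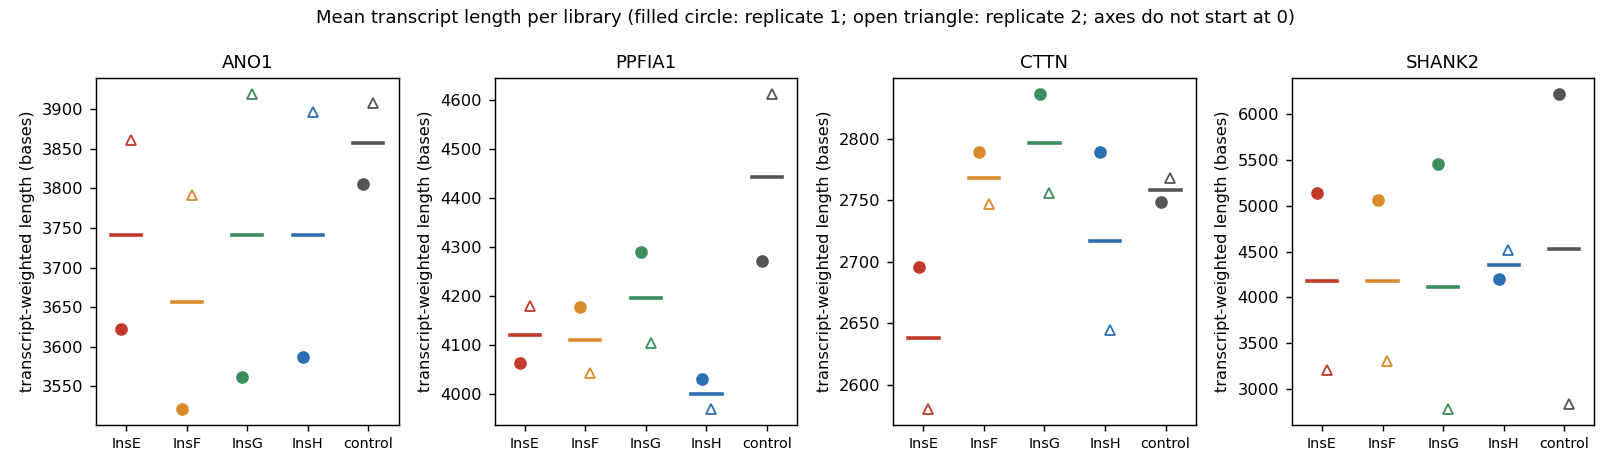
Estimated transcript length in bases in each library for the 4 genes with several transcripts, on axes that do not start at 0, with filled circles for replicate 1, open triangles for replicate 2 and bars for group means. For ANO1 replicate 2 is longer than replicate 1 in all 5 groups, and for SHANK2 the control libraries stand at 6221 and 2832 bases.

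Genes that work with the 6, or lie farther toward the telomere, were followed in 7 lists. Of 98 listed genes 83 were tested, of which 9 rose, 20 fell and 54 did not pass edgeR's test when the mean of the 4 lines was set against control. That is 34.9% called, against 27.6% of all 15554 genes, and the median log2 change was -0.09, against 0.01 over all genes. The count rests on both control libraries, since fewer genes were called without either of them, among the listed genes and over all genes alike. The lists were chosen with earlier results in view, and each is described by its counts alone.

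None of the 5 tested anoctamins other than ANO1 passed. ANO6, the widely expressed anoctamin that scrambles membrane lipids, averaged 129 ± 16 CPM in lines (SD, n = 8) and 128 ± 5.3 CPM in control (n = 2), with an edgeR adjusted p of 0.971. ANO10 averaged 20.4 ± 0.34 CPM in lines and 18.4 ± 0.87 CPM in control (adjusted p = 0.0764, edgeR). The median log2 change of the family was 0.00.

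Among 15 partners of ANO1 in calcium and chloride handling, 1 rose and 4 fell, with a median log2 change of -0.10. ORAI1, the plasma membrane pore of store-operated calcium entry, read 47.9 to 55.1 CPM in lines, against 64.3 and 64.7 CPM in control (log2 change -0.32 ± 0.05, edgeR adjusted p = 0.000731). CACNA1H, a T-type calcium channel subunit, fell by 0.60 ± 0.11 on the log2 scale (edgeR adjusted p = 0.00423, and 0.0611 without control replicate 1). EZR, which ties membrane proteins to actin, fell by 0.20 and ATP2A2, the calcium pump of the endoplasmic reticulum, fell by 0.155 on that scale. Both calls were lost without either control library, with adjusted p of up to 0.0729 for EZR and 0.1 for ATP2A2 (edgeR).

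In the death receptor pathway, 2 of 12 tested genes rose and 4 fell, with a median of -0.11. TRADD, the adaptor that couples the TNF receptor to FADD, averaged 9.59 ± 1.05 CPM in lines (SD, n = 8) and 6.61 ± 1.08 CPM in control (n = 2). Its edgeR adjusted p was 0.018, and 0.208 without control replicate 2. TNFRSF10D, a decoy receptor for TRAIL, read 9.55 to 13.2 CPM in lines, against 15.1 and 16.1 CPM in control (log2 change -0.49 ± 0.07, edgeR adjusted p = 0.000593). TNFSF10, which encodes TRAIL itself, fell by 0.26 and the receptor FAS fell by 0.245 on the log2 scale. Their calls were lost without either control library and, for both, without InsH replicate 2, with adjusted p of up to 0.219 for TNFSF10 and 0.224 for FAS (edgeR). FAS also lost its call without InsE replicate 2.

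Of 11 liprins and LAR receptor phosphatases, 1 rose and 5 fell, with a median of -0.13. PTPRF, the LAR phosphatase itself, read 14.1 to 21.5 CPM in lines, against 26.4 and 26.7 CPM in control (log2 change -0.67 ± 0.05, edgeR adjusted p = 2.65e-05). PTPRD, its relative, read 67.4 to 97.9 CPM in lines, against 120.8 and 120.8 CPM in control (-0.47 ± 0.04, edgeR adjusted p = 7.02e-05). PTPRS, the remaining LAR family member, fell by 0.27 on the log2 scale, and its edgeR adjusted p was up to 0.157 without a control library. ERC2, an active zone protein that binds liprins, read 3.46 to 6.21 CPM in lines, against 1.64 and 2.10 CPM in control (1.445 ± 0.151, edgeR adjusted p = 0.000128).

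In the cortactin and Arp2/3 list, 3 of 15 tested genes rose and 1 fell, with a median of -0.04. ARPC5, a subunit of Arp2/3, read 237 to 301 CPM in lines, against 222 and 226 CPM in control (log2 change 0.27 ± 0.05, edgeR adjusted p = 0.00559). DNM2, the dynamin that binds cortactin, rose by 0.255 and ARPC4, another subunit, rose by 0.155 on the log2 scale. SH3PXD2B, a podosome scaffold, fell by 0.36. All 4 calls were lost without a control library, with adjusted p of up to 0.0918 for ARPC5, 0.2 for DNM2, 0.263 for ARPC4 and 0.0752 for SH3PXD2B (edgeR), and that of ARPC4 in 9 of 10 leave-outs.

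Among SHANK partners, 1 of 8 tested genes rose and 2 fell, with a median of -0.20. HOMER3, a scaffold that links SHANK proteins to calcium channels, read 13.0 to 17.4 CPM in lines, against 22.5 and 23.3 CPM in control (log2 change -0.63 ± 0.08, edgeR adjusted p = 0.000445). HOMER2 read 0.27 to 0.95 CPM in lines, against 1.23 and 1.41 CPM in control (-1.16 ± 0.30, edgeR adjusted p = 0.0181, and up to 0.196 without a control library). ARHGEF7, a Rac exchange factor also called beta-PIX, read 115 to 126 CPM in lines, against 94.4 and 96.1 CPM in control (0.33 ± 0.05, edgeR adjusted p = 0.000699).

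Farther toward the telomere, 1 of 17 tested neighbours rose and 4 fell, with a median of -0.03. FAM86C1 read 10.2 to 11.6 CPM in lines, against 14.1 and 14.4 CPM in control (log2 change -0.39 ± 0.07, edgeR adjusted p = 0.00286). FAM86C1 belongs to a family with near-identical copies, between which its fragments may have been divided. DHCR7, the last enzyme of cholesterol synthesis, read 146 to 269 CPM in lines, against 233 and 236 CPM in control (-0.385 ± 0.060, edgeR adjusted p = 0.00134), so its groups overlapped. FCHSD2 fell by 0.255 and the lipid phosphatase INPPL1 fell by 0.22 on the log2 scale, with edgeR adjusted p of up to 0.0824 and 0.181 without a control library.

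Over the 10 libraries, the genes whose log2 CPM moved most like that of each of the 6 were found by the root mean square difference of their centred values, among 12080 genes with a mean log2 CPM of at least 1. For ANO1 these were PDZD2, SH3RF3 and ZNF462, at 0.062, 0.062 and 0.063, and their mean log2 differences of the lines from control were -0.69, -0.77 and -0.73. For FADD they were LMBR1L, SMIM3 and UBE2J2 at 0.036 to 0.04, and for CTTN they were FTSJ3, TUBG1 and EIF4A1 at 0.021 to 0.023. PPFIA1 was nearest to ILF2, C12orf57 and CTCF, the insulator protein's own gene, at 0.031 to 0.034. The nearest to RP11-626H12.1 were RHOJ, NETO2 and PHYH at 0.12 to 0.159. Those of SHANK2 were PDGFA, C1orf226 and RPP25 at 0.187 to 0.189. The 6 genes themselves were left out of this search, so it does not show whether they moved alike. The libraries share one control, so the likeness is a description.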

How the data were processed

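Polyadenylated RNA of 10 GIST-T1 libraries was sequenced, and libraries were grouped by the genotype in their labels. The submitters' processing notes name genome build hg38 with STAR 2.5.3, RSEM 1.3.2 and DESeq2 1.38.3. For the annotation release and strand setting, the sources used here give nothing. The expected counts (estimated counts) were deposited as RSEM wrote them, without normalisation across libraries, and 30.2 to 34.4% of detected values per library were not whole. The deposited TPM are the authors' length-corrected shares of each library and keep no depth. The authors' tables also give the share-weighted transcript length in bases. A further deposited table with 10 value columns was not used, since its column names did not all match the labels.

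Expected counts were rounded and fitted with edgeR 4.0.16 in R 4.3.3 (robust quasi-likelihood, TMM, expression filter with a minimum count of 10), all 10 libraries together, with two-sided tests adjusted by Benjamini-Hochberg over 15554 genes at 0.05. The pipeline was also run on simulated counts, drawn without the replicate pairing seen in the lines, and no result given here rests on that run. Lengths were compared by an exact permutation test over libraries, with the 2 libraries of each group treated as separate. Positions came from GENCODE release 29, which held 58261 of 58381 identifiers. The replicate numbers paired the lines, whose same-numbered libraries deviated together (correlation of deviations 0.39 to 0.46 in 6 of 6 pairs of lines, from the values, since the labels state no shared day), and not lines with control (0 to 0.04).

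Named genes were all 6 genes, their antisense rows, up to 4 called members of each list by size of change or else the 2 most abundant, and the 3 genes most like each of the 6. The 6 genes and the lists were chosen with earlier results of these data known. Alternatives were library sizes only, RLE size factors, no filter, a replicate block, DESeq2 1.42.0, limma 3.58.1 on log2(TPM + 1) and log2(TPM + 0.1), each library left out, and, added after seeing the data, summed antisense rows and the line libraries alone.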

Additional observations from a re-analysis of the deposited data

Results flagged for a closer look

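ANO1 passed the test among the 4 lines only with the replicate number as a block (edgeR with the replicate block, adjusted p = 0.00897). Its group means were 711 CPM in InsE cells, 729 in InsF cells, 775 in InsG cells and 786 in InsH cells. CTTN did so as well (edgeR with the block, adjusted p = 0.0301), with group means of 269 CPM in InsE cells, 264 in InsF cells, 244 in InsG cells and 254 in InsH cells. Both genes read lower in each line than in control. Neither passed without the block in edgeR's test among the lines (adjusted p = 0.326 for ANO1 and 0.395 for CTTN), where 13.2% of all genes were called. With the block 35.0% of all genes were called, so a call there does not set a gene apart. The block includes control, whose replicates did not move with those of the lines. The levels were in view when the genes were selected, so these calls are not independent evidence.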

How the results depend on the processing

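Between the mean of the lines and control, 4296 genes were called, against 6679 with the replicate block, 2840 with DESeq2, 2236 and 2238 with limma on log2(TPM + 1) and log2(TPM + 0.1), and 1501 to 4311 with 1 library left out (1501 without control replicate 1, 1685 without control replicate 2). Genes differing among the lines numbered 2055, and 3660 with no filter on low counts, 5442 with the block, 984 and 979 with limma, 1351 with the line libraries only, 8616 with the line libraries only and the block, and 700 to 1873 in the leave-outs (700 and 952 without InsE replicate 1 or 2, 1314 and 1283 without control replicate 1 or 2). Genes changed in InsE against the other lines numbered 3762, and 5942 with the block, 2423 with DESeq2, 7695 with the line libraries only and the block, and 1956 to 3495 in the leave-outs (1956 and 2208 without InsE replicate 1 or 2). Listed genes called numbered 29, and 44 with the block, 15 and 15 with limma and 10 to 28 in the leave-outs. The mean log2 difference of the lines from control, with limma on both TPM scales, was -0.65 for ANO1, 0.26 for FADD, -0.03 for PPFIA1 and -0.10 for CTTN, and it was -0.48 for SHANK2 on log2(TPM + 1). With library sizes only it was 0.26 for FADD and -0.15 for PPFIA1, and with the antisense row summed it was 0.12 for FADD. Leaving out 1 library gave 0.15 to 0.26 for FADD and -0.24 to -0.18 for PPFIA1. Among the lines, edgeR's adjusted p with the block was 0.00897 for ANO1 and 0.0301 for CTTN. With the line libraries only and the block it was 5.8e-17 for ANO1, 2.46e-07 for CTTN, 0.019 for FADD and 0.0415 for PPFIA1, in a fit that called 8616 genes. How small these values are is not read as strength of evidence. In the fit of all 10 libraries the block changed no other call among the lines for the 6 genes. InsE minus the mean of the other lines turned to -0.02 for PPFIA1 with limma on both TPM scales (adjusted p = 0.895 and 0.894). The SHANK2 length difference, -317.4 bases, ran from -2011.9 to 1377.2 bases when 1 library was left out, and turned positive without control replicate 1. The same ranges were -504.8 to -165.3 bases for PPFIA1, -187.8 to -85.5 bases for ANO1 (smallest without control replicate 2) and -43.7 to -7.1 bases for CTTN (without InsG replicate 1 and without InsE replicate 2). The sign of each of the 6 mean differences from control held in every alternative run, but only ANO1 and RP11-626H12.1 kept their call throughout. FADD (adjusted p up to 0.229), PPFIA1 (up to 0.791), CTTN (up to 0.257) and SHANK2 (up to 0.277) each lost it in alternatives, among them the leaving out of a control library. The cause was not tested. ANO1 in InsE against the other lines gained a call with limma (-0.20, adjusted p = 0.029 and 0.0285). The lower depth of replicate 2 in the lines limits SHANK2 and RP11-626H12.1, with 20 to 38 and 41 to 76 counts in those libraries.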
